A study of Danio rerio with 4 samples.

Results

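Described here are 7 hormone and endocrine cell genes, of 14781 genes counted in zebrafish gut: gcga, gcgb, gip, ghrl, penka, insm1b and scgn. They were matched by name in the count table, and they were chosen by their values in the same comparison of genotypes that is described below, so their differences between genotypes are given as a description, with no test. The count table holds 2 fish that were homozygous for the st95 mutation of irf8, the gene for a transcription factor needed to make macrophages, and 2 that were heterozygous for it. Each library is the whole gut of 1 adult, untreated per the labels, and the libraries were made from its polyadenylated RNA. All 4 fish carry at least 1 mutant allele, so no wild-type gut enters the comparison. The labels name the tissue as intestine and the sample as whole gut, and they do not say whether pancreas was removed.

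Hormone cells lie scattered as single cells in the gut lining, where they sense food and release peptides to nerves and blood. gcga and gcgb are the zebrafish copies of the proglucagon gene, whose precursor is cut into glucagon and glucagon-like peptides. gip encodes the glucose-dependent insulinotropic peptide, ghrl encodes ghrelin, a peptide that promotes feeding in mammals, and penka encodes proenkephalin, the precursor of opioid peptides of neurons and endocrine cells. insm1b encodes a zinc finger factor of endocrine cell differentiation, and scgn encodes secretagogin, a calcium-binding protein of endocrine cells and neurons. In zebrafish the proglucagon, ghrelin and gip genes are also active in the pancreatic islet, where alpha cells make glucagon, beta cells make insulin and delta cells make somatostatin. Transcripts of these genes in a whole gut can therefore come from gut endocrine cells or from islet tissue that lies along the gut. In such bulk samples, fewer cells of a type and less RNA per cell cannot be told apart.

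The libraries held 6350840 to 10391963 counts of read pairs and detected 11059 to 12486 genes. Heterozygous replicate 2 stood apart, since 36.3% of its counts came from a list of exocrine pancreas genes, against 4.87% and 0.522% in the homozygous libraries and 1.63% in heterozygous replicate 1. Fold changes of the 7 genes are given with and without it. Without it the heterozygous group is 1 library, so the standard error (SE) of that fit holds no spread between heterozygous fish. Where the text gives the median of a gene list, it adds the range over leaving out each library in turn. The count filter was applied anew each time. Across 9701 genes tested with edgeR's quasi-likelihood test, 0% (0 genes) were called between homozygous and heterozygous gut at a Benjamini-Hochberg adjusted p of 0.05, while 628 had an unadjusted p under 0.05 and DESeq2 called 55 of 10783 genes (0.51%). The targeted gene irf8 had 25 and 25 counts in homozygous gut, against 30 and 50 counts in heterozygous gut, which does not by itself check the genotype, since an allele need not remove its transcript.

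The 7 genes fell into 3 patterns. For gcga, gcgb, gip and ghrl each homozygous library lay below each heterozygous one, for penka each lay above, and for insm1b and scgn the genotypes overlapped. Among all tested genes 19.3% had both homozygous libraries below and 19.9% had both above. Because this contrast chose the members, nothing is read from their share. All 7 passed the filter on low counts, gip through its count in heterozygous replicate 2 together with 12 counts in homozygous replicate 2. No exon of the 7 genes overlapped an exon of another gene in the table.

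**Figure D1:**
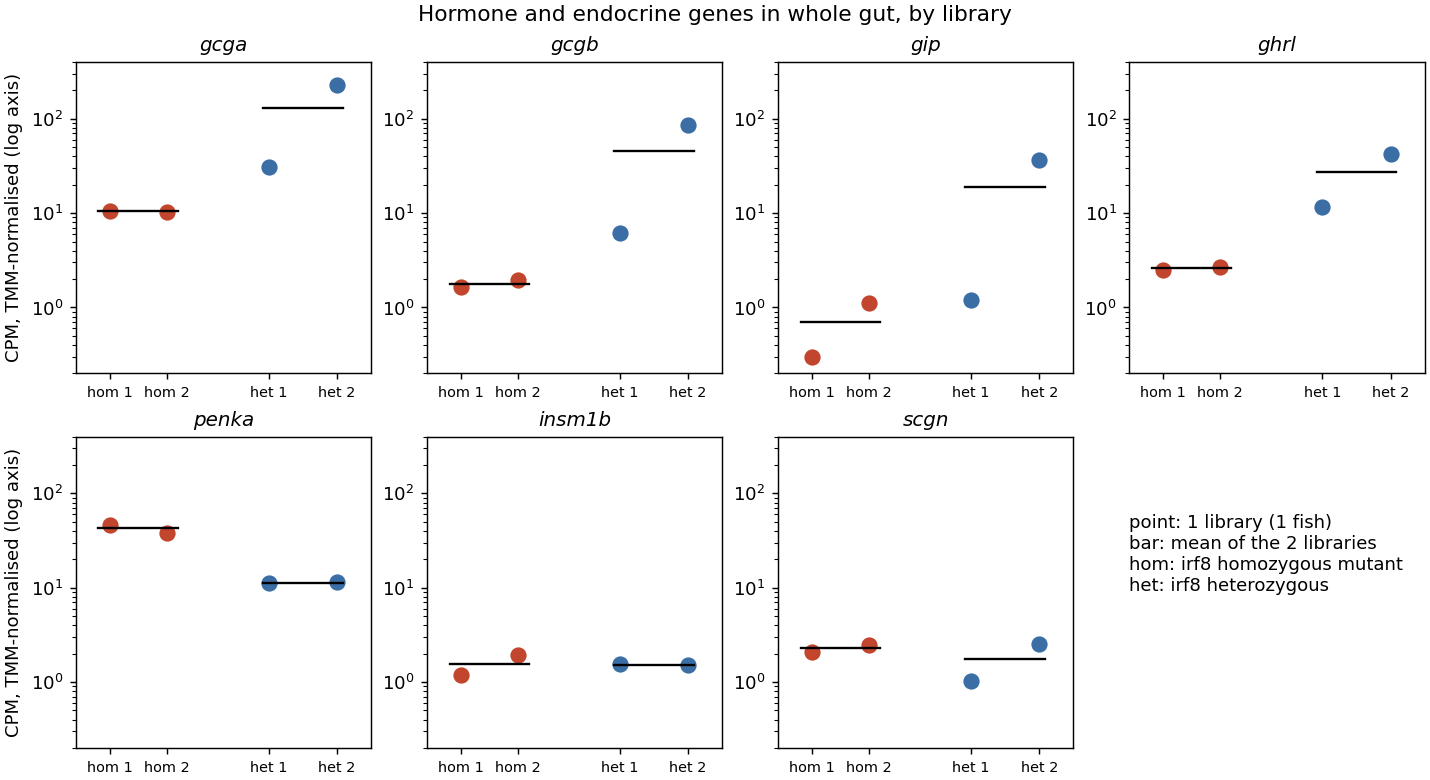
Level of each of the 7 genes in CPM (TMM-normalised, log axis) in the 2 homozygous and the 2 heterozygous libraries; each point is 1 library and each bar the mean of a genotype. gcga, gcgb, gip and ghrl are highest in heterozygous replicate 2, penka is higher in both homozygous libraries, and insm1b and scgn stay between 1.02 and 2.52 CPM.

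gcga (chromosome 22, 11587838 to 11596336, minus strand, 6 exon blocks in danRer10) had 10.7 and 10.3 CPM (counts scaled to library size by TMM) in homozygous gut, against 31.1 and 227.8 CPM in heterozygous gut. The homozygous libraries were nearly equal, at 72 and 112 counts, while the heterozygous ones, at 182 and 2082 counts, differed 7.33-fold in CPM. gcga was 12.3-fold lower in homozygous gut by the fitted log2 fold change of -3.62 ± 0.97 (SE). Most of that size came from 1 fish: without heterozygous replicate 2 the value was -1.57 ± 0.425. The remaining gap, between 31.1 CPM in heterozygous replicate 1 and the homozygous libraries, was wider than the spread between these, but it rests on a single heterozygous library.

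gcgb, the second proglucagon gene (chromosome 9, 51733860 to 51740173, plus strand, 4 exon blocks), had 1.63 and 1.94 CPM in homozygous gut, against 6.15 and 85.2 CPM in heterozygous gut. Its counts were 11 and 21 in homozygous gut and 36 and 779 in heterozygous gut. Again both homozygous libraries were lowest and alike, and heterozygous replicate 2 was 13.9-fold above heterozygous replicate 1. The log2 fold change was -4.66 ± 1.26 (SE), or 25.4-fold lower, and -1.78 ± 0.84 without heterozygous replicate 2. Within a library the copies can be compared per length, with a counted exon length of 2316 bases for gcga and 591 bases for gcgb. This takes the counted length as that of the transcripts made, which was not tested. gcga was 1.67 and 1.36 times as high as gcgb per kilobase in homozygous gut, and 1.29 times in heterozygous replicate 1. Only in heterozygous replicate 2 was the order turned round, with gcga at 0.682 times gcgb.

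ghrl (chromosome 6, 40440482 to 40441965, plus strand, 4 exon blocks) had 2.52 and 2.68 CPM in homozygous gut, against 11.6 and 42.9 CPM in heterozygous gut. The ghrelin gene thus had the same order of genotypes, and its heterozygous libraries lay closer together than those of the proglucagon genes, 3.69-fold apart. The log2 fold change was -3.39 ± 0.72 (SE), and -2.16 ± 0.63 without heterozygous replicate 2. Heterozygous replicate 1 alone, with 68 counts, was 4.47-fold above the homozygous mean of 2.60 ± 0.112 CPM (SD, n = 2), against 2.96-fold for gcga and 3.45-fold for gcgb.

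gip (chromosome 12, 20540762 to 20543290, minus strand, 5 exon blocks) was the member most tied to a single library. It had 2 and 12 counts in homozygous gut, against 7 and 337 counts in heterozygous gut, or 0.296 and 1.11 CPM against 1.19 and 36.9 CPM. Heterozygous replicate 2 was 30.9-fold above heterozygous replicate 1, which itself was only just above homozygous replicate 2. In CPM these 2 libraries were close, at 1.19 and 1.11. Their exact 95% Poisson intervals were wide, at 2.81 to 14.4 and 6.2 to 21.0 counts, before scaling to library size. A difference between these 2 libraries was therefore not detectable at this depth. The log2 fold change of -4.66 ± 1.61 (SE) rests on heterozygous replicate 2, and without that library gip did not pass the count filter.

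penka (chromosome 2, 11725093 to 11729219, minus strand, 3 exon blocks) was the member with the opposite direction and the steadiest values. It had 46.8 and 38.3 CPM in homozygous gut, against 11.3 and 11.4 CPM in heterozygous gut, from 316 and 415 counts against 66 and 104. The heterozygous fish that differed so widely in gcga, gcgb, gip and ghrl were nearly equal in penka. penka was 3.75-fold higher in homozygous gut (log2 fold change 1.91 ± 0.34, SE), and 1.91 ± 0.48 without heterozygous replicate 2. Over every processing alternative tried the value stayed between 1.78 and 2.04.

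insm1b (chromosome 17, 41475068 to 41477265, plus strand, 1 exon block) had 1.18 and 1.94 CPM in homozygous gut, against 1.54 and 1.53 CPM in heterozygous gut. The heterozygous libraries lay between the homozygous ones, at a log2 fold change of 0.04 ± 0.79 (SE). scgn (chromosome 16, 6415782 to 6436990, minus strand, 11 exon blocks) had 2.07 and 2.49 CPM in homozygous gut, against 1.02 and 2.52 CPM in heterozygous gut. Its log2 fold change was 0.35 ± 0.79 (SE) and took the other sign, at -0.10, without heterozygous replicate 1. With 6 to 27 counts a library these genes give wide errors, and a difference between genotypes was not detectable at this depth.

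**Figure D2:**
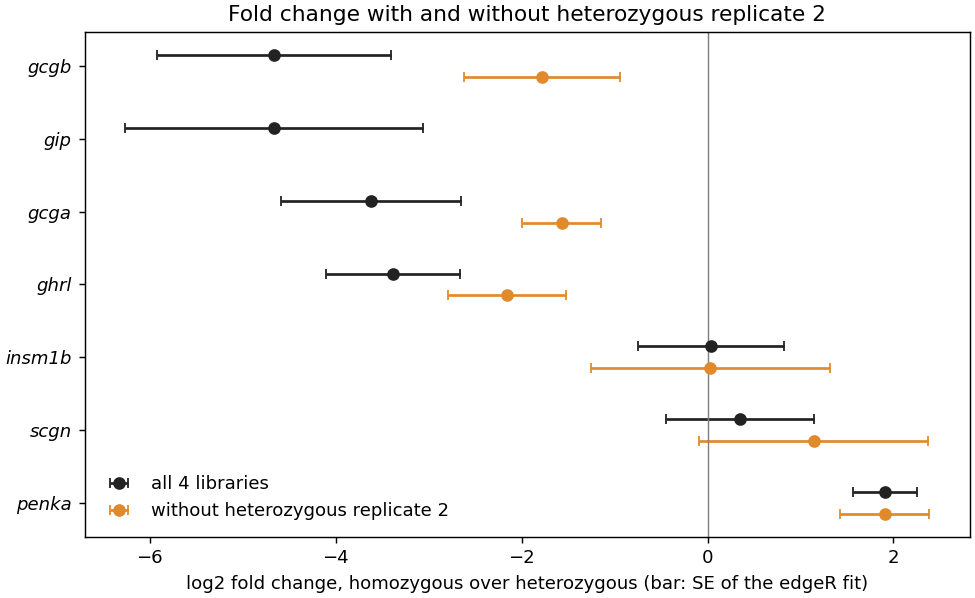
Log2 fold change of each of the 7 genes, homozygous over heterozygous gut, from the edgeR fit of all 4 libraries and of the 3 left without heterozygous replicate 2; bars are standard errors. gcga, gcgb and ghrl stay below 0 but move towards it without that library, and penka keeps its place at 1.91. gip has no second point because it did not pass the count filter. Without that library the bars hold no spread between heterozygous fish.

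The authors' deposited table of 76 genes, where 14781 were counted, lists 4 of the 7. The table belongs to the same series as the counts, so it is not a separate check of them. The members were chosen by this contrast, so nothing is read from how many of them the table lists. The authors' deposited table gives log2 fold changes of -4.57 for gip and for gcgb, -3.68 for gcga and -3.44 for ghrl. Its header does not name the direction, and the signs are those of homozygous over heterozygous gut in the counts. penka, insm1b and scgn are not among its 76 genes.

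The make-up of the 7 genes in each library differed. It follows from the same values that chose the members, so nothing is read from its difference between genotypes. Per kilobase of exon, penka took 68.1% and 59.6% of their summed level in homozygous gut, against 12.9% and 1.92% in heterozygous gut. In homozygous gut the order per kilobase was penka (29.7 ± 4.19 CPM per kb, SD, n = 2), ghrl (5.72 ± 0.247), gcga (4.53 ± 0.0998) and gcgb (3.02 ± 0.370), with each neighbour further apart than these spreads. scgn (1.43 ± 0.185), gip (1.27 ± 1.04) and insm1b (0.71 ± 0.242) followed, where gip overlapped both. In heterozygous gut gcgb (77.3 ± 94.6), ghrl (60.0 ± 48.7), gcga (55.9 ± 60.06) and gip (34.5 ± 45.8) had the highest means. They could not be ordered by mean, since each spread was wider than the gaps. penka (7.89 ± 0.0551), scgn (1.11 ± 0.659) and insm1b (0.70 ± 0.0015) came below them in mean, the last pair within the spread of scgn. Heterozygous replicate 1 had ghrl first at 25.6 CPM per kb, then gcga at 13.4 and gcgb at 10.4, while heterozygous replicate 2 had gcgb first at 144.2. gip was below gcga, gcgb and ghrl in both heterozygous libraries, at 2.17 and 66.9 CPM per kb.

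**Figure D3:**
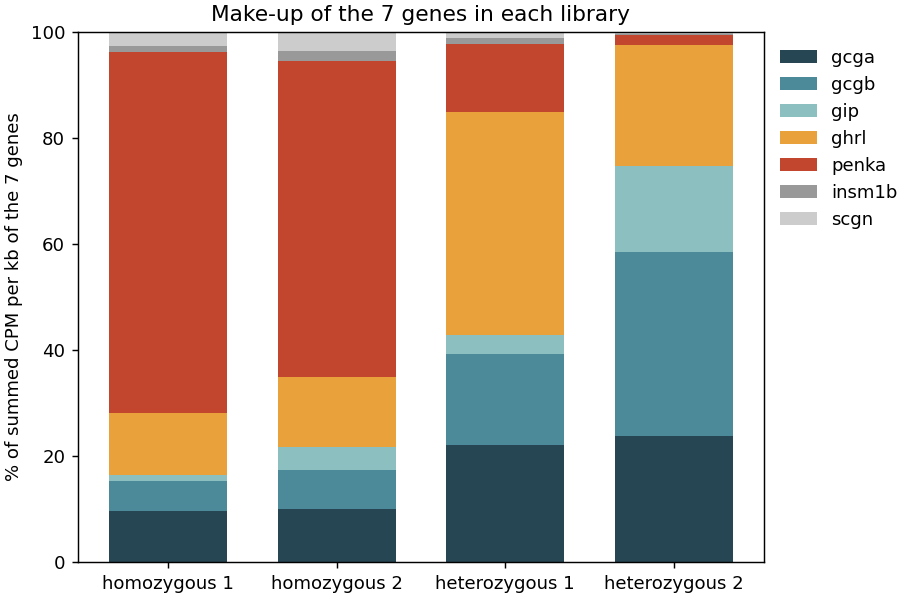
Share of each gene in the summed CPM per kilobase of the 7 genes (percent), as 1 stacked bar for each library. penka takes 68.1% and 59.6% in the homozygous libraries, against 12.9% and 1.92% in the heterozygous ones, where ghrl leads in replicate 1 and gcgb in replicate 2.

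Islet hormone genes had the same order of genotypes as the 4 lower genes. ins, the insulin gene, had 0 and 0 counts in homozygous gut, against 89 and 7031 counts in heterozygous gut, at least 1088-fold lower against a level of 3 counts per library, and at least 42.1-fold lower against heterozygous replicate 1 alone. The somatostatin genes sst1.1 and sst2, named after their values were seen, had 0 counts in both homozygous libraries, against 5 and 778 for sst1.1 and 5 and 608 for sst2 in heterozygous gut. A count of 0 allows up to 0.444 and 0.277 CPM in homozygous replicates 1 and 2. In these same libraries, with insulin and both somatostatin genes at 0, gcga still had 72 and 112 counts and ghrl 17 and 29. ins was 2.42 times as high as gcga per kilobase in heterozygous replicate 1 and 16.7 times in heterozygous replicate 2. The part of islet tissue in the difference of gcga, gcgb, gip and ghrl was not tested.

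Of 18 islet genes that the table holds, 6 were tested, with 3 higher and 3 lower, 0 called by edgeR and 1 with an unadjusted p under 0.05. Beside ins these were led by pdx1, a factor gene of pancreas and duodenum, at 1.48 and 6.83 CPM in homozygous gut, against 11.6 and 18.4 CPM in heterozygous gut. abcc8, a subunit gene of the potassium channel of beta cells, had 3.11 and 3.88 CPM in homozygous gut, against 7.17 and 5.14 CPM. neurod1, a factor gene shared by islet and gut endocrine cells, went the other way, at 2.07 and 3.97 CPM in homozygous gut, against 1.19 and 1.64 CPM. The median log2 fold change of the 6 was -0.13, where that of all tested genes was -0.05. It depended on which genes passed the filter, which left out sst1.1 and sst2: it was -0.87 with no count filter, -1.82 with a filter at a mean of 1 CPM, and between -3.33 (without homozygous replicate 2) and 0.41 (without heterozygous replicate 2) with a library left out. The summed level of the 18 genes was 1487 and 2476 CPM in homozygous gut, against 1505 and 1620 CPM in heterozygous gut. g6pca.2, a glucose-6-phosphatase gene named after its values were seen, made up 1450 and 2434 CPM of these sums in homozygous gut. It made up 1454 and 642.4 CPM in heterozygous gut. Without it the sums were 37.8 and 42.5 CPM in homozygous gut, against 50.5 and 978.1 CPM in heterozygous gut. Of these, scg3, a gene that endocrine cells of many types share, made up 28.9 and 23.4 CPM, against 11.8 and 24.1 CPM. The islet hormone genes ins, sst1.1 and sst2 summed to 0 and 0 CPM in homozygous gut, against 16.9 and 920.8 CPM in heterozygous gut.

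The exocrine pancreas list gave another order of libraries. Its summed level was 46100 and 4503 CPM in homozygous gut, against 17670 and 412900 CPM in heterozygous gut. Homozygous replicate 1 had 2.61 times the exocrine level of heterozygous replicate 1, with 0 against 89 insulin counts, 72 against 182 gcga counts and 17 against 68 ghrl counts. The part of pancreas tissue in the hormone values was not tested. All 24 tested exocrine genes were highest in heterozygous replicate 2, as were 26.9% of all tested genes. So were 5 of the 7 members, but the contrast that chose gcga, gcgb, gip and ghrl already places a heterozygous library highest. Nothing is read from the share of the members. The examples with the smallest p were the elastase gene zgc:112302, at 6.81 and 1.66 CPM in homozygous gut, against 2.73 and 244.3 CPM, and the carboxypeptidase gene cpa1, at 178.6 and 38.4 CPM, against 73.7 and 5428 CPM. The list's median log2 fold change was -3.45, between -5.65 (without homozygous replicate 1) and 0.50 (without heterozygous replicate 2).

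**Figure D4:**
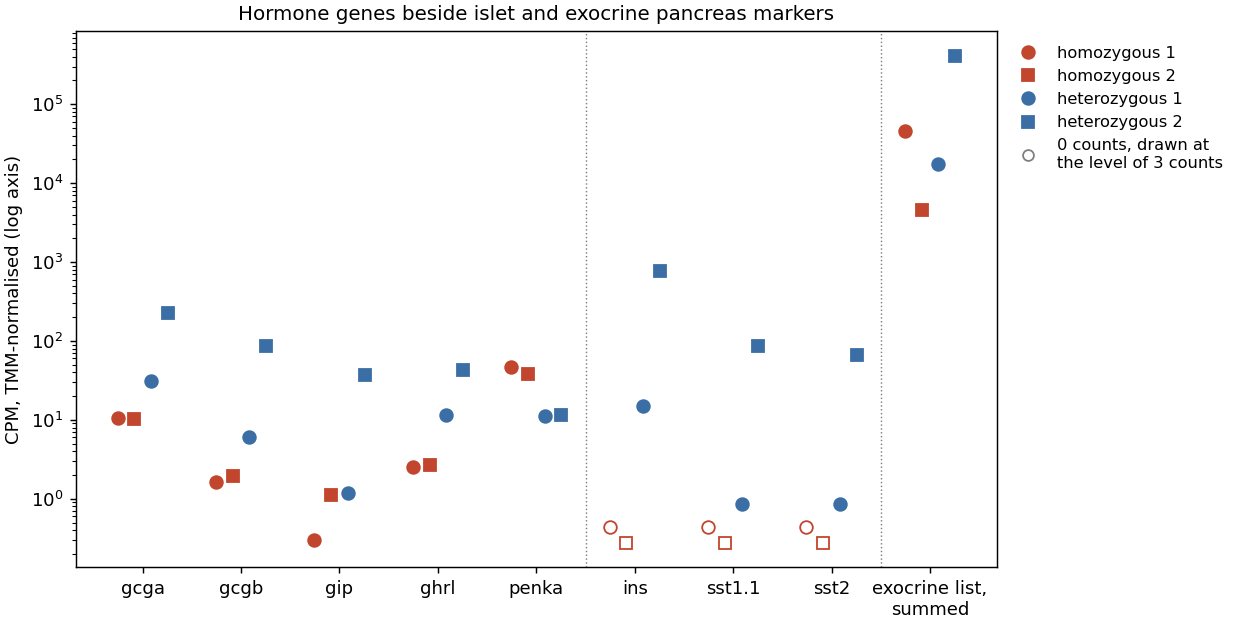
CPM (TMM-normalised, log axis) of 5 members, of the islet hormone genes ins, sst1.1 and sst2, and of the summed exocrine pancreas list in the 2 homozygous and 2 heterozygous libraries; open symbols stand for 0 counts and are drawn at the level of 3 counts. The islet genes are at 0 in both homozygous libraries and highest in heterozygous replicate 2, whereas the exocrine sum is higher in homozygous replicate 1 (46100 CPM) than in heterozygous replicate 1 (17670 CPM).

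Genes that endocrine cells of many types share were set beside the members. scg3, a granin gene of hormone granules, had 28.9 and 23.4 CPM in homozygous gut, against 11.8 and 24.1 CPM in heterozygous gut. Set against scg3 in the same library, which removes the scaling between libraries, gcga had 0.369 and 0.441 counts per scg3 count in homozygous gut, against 2.64 and 9.46 in heterozygous gut. ghrl had 0.0872 and 0.114 counts per scg3 count, against 0.986 and 1.78. penka had 1.62 and 1.63 counts per scg3 count in homozygous gut, against 0.957 and 0.473 in heterozygous gut. The genotypes did not overlap by this measure for these 3 genes, but the contrast chose them, so nothing is read from it. scg3 itself was lowest in heterozygous replicate 1, which raises the ratios of that library.

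Of 21 genes of prohormone processing, granins and exocytosis that the table holds, 12 were tested, with 8 higher and 4 lower, and 0 were called or had an unadjusted p under 0.05. Their median log2 fold change was 0.45, between -0.22 (without heterozygous replicate 1) and 1.49 (without heterozygous replicate 2). rab3aa, a granule trafficking gene, had 1.78 and 1.38 CPM in homozygous gut, against 1.88 and 4.16 CPM. snap25a, a fusion protein gene, had 3.55 and 0.923 CPM, against 0.171 and 1.53 CPM. ptprna, a gene for a granule membrane protein, had 1.78 and 2.95 CPM, against 0.341 and 10.1 CPM. In 1 of the 12, rab3aa, the homozygous libraries were both below the heterozygous ones and in 0 both above. Over all tested genes those shares were 19.3% and 19.9%. Heterozygous replicate 1 had the lowest summed level of the list, at 24.6 CPM, against 70.6 and 54.4 CPM in homozygous gut and 77.1 CPM in heterozygous replicate 2.

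Of 31 transcription factor genes of endocrine cells that the table holds, 12 were tested, with 9 higher and 3 lower at a median log2 fold change of 0.12, which ran from -0.09 (without heterozygous replicate 1) to 0.52 (without heterozygous replicate 2), 0 called and 1 with an unadjusted p under 0.05. mafba, a factor gene of islet cells and of macrophages in mammals, had 26.1 and 57.9 CPM in homozygous gut, against 8.53 and 17.8 CPM, a log2 fold change of 1.67 ± 0.57 (SE, edgeR adjusted p = 0.699). sox4b, a factor gene of endocrine precursors, had 30.4 and 21.1 CPM, against 16.6 and 14.6 CPM. fev, a factor gene of serotonin-producing cells that was named after its values were seen, had 10.5 and 7.84 CPM, against 6.66 and 5.25 CPM. For 4 of the 12 tested genes each homozygous library lay above each heterozygous one, and for 1, pdx1, each lay below. Over all tested genes those shares were 19.9% and 19.3%, and nothing is read from counts this small.

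Of 25 other hormone precursor genes that the table holds, 10 passed the filter and were tested, with 5 higher and 5 lower in homozygous gut, 0 called and 1 with an unadjusted p under 0.05, and 3 had 0 counts in every library. adcyap1a, a gene for the neuropeptide PACAP, had 7.55 and 9.23 CPM in homozygous gut, against 3.93 and 3.28 CPM in heterozygous gut. penkb, the second proenkephalin gene, had 6.52 and 12.1 CPM in homozygous gut, against 3.58 and 0.219 CPM, so that both proenkephalin genes had their homozygous libraries highest. Of the 10 tested genes 3 had both homozygous libraries highest and 0 both lowest. Over all tested genes those shares were 19.9% and 19.3%, and nothing is read from counts this small. The penkb fold change of 2.34 ± 1.15 (SE, log2; edgeR adjusted p = 0.699) leans on 2 counts in heterozygous replicate 2. insl5b, a gene for an insulin-like peptide of the hindgut in mammals, had 2.81 and 3.78 CPM in homozygous gut, against 6.83 and 2.19 CPM, and nmbb, a neuromedin B gene, 1.93 and 2.31 CPM, against 1.54 and 1.64 CPM. insl5a, named after its values were seen, had 9.33 and 18.0 CPM, against 15.0 and 13.1 CPM, and so did not share the pattern of the proglucagon genes. sst1.1 and sst2, given above, are on this list and did not pass the filter. The median log2 fold change of the 10 was 0.16. It was -0.43 with no count filter, -0.18 with a filter at a mean of 1 CPM, and between -1.33 (without homozygous replicate 1) and 0.46 (without heterozygous replicate 2) with a library left out.

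The list of genes for serotonin cells had a median log2 fold change of 0.74, between 0.42 (without homozygous replicate 1) and 1.38 (without heterozygous replicate 2). Of 6 tested genes 5 were higher, and edgeR called 0. slc6a4a, a gene for the serotonin transporter, had 20.1 and 51.4 CPM in homozygous gut, against 5.46 and 7.22 CPM, 5.62-fold higher (log2 fold change 2.49 ± 0.56, SE; edgeR adjusted p = 0.699), and was the 1 gene of this list that DESeq2 called. adra2a, an adrenergic receptor gene, had 15.7 and 14.8 CPM, against 10.4 and 5.36 CPM. trpa1b, a gene for an irritant-sensing channel, had 2.22 and 1.11 CPM, against 0 and 1.42 CPM. mao, the gene for the enzyme that breaks down serotonin, had 445.4 and 581.1 CPM, against 1244 and 324.5 CPM. Other genes of the list, named after their values were seen, did not share a rise. tph1b had 33 and 2 counts in homozygous gut, against 3 and 26 counts, and tph2 had 1 and 2, against 1 and 4. tph1a and slc18a2 had 0 counts in all 4 libraries. ddc had 104.8 and 124.9 CPM, against 161.0 and 53.8 CPM. The 16 receptor and peptidase genes in the table were mostly scarce, and 5 were tested, with 4 higher, 1 lower, 0 called and 0 with an unadjusted p under 0.05. The ghrelin receptor gene ghsra, named after its values were seen, had 0 counts in all 4 libraries. dpp4, a gene for the peptidase that inactivates glucagon-like peptides, had 101.9 and 349.9 CPM in homozygous gut, against 137.8 and 90.8 CPM. The aminopeptidase genes, whose products break down enkephalins, were high: anpepa had 335.2 and 536.7 CPM, against 323.6 and 223.9 CPM, and anpepb had 1181 and 2613 CPM, against 1193 and 959.7 CPM. sstr5, a somatostatin receptor gene, had 1.93 and 6.09 CPM, against 2.22 and 10.3 CPM.

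**Figure D5:**
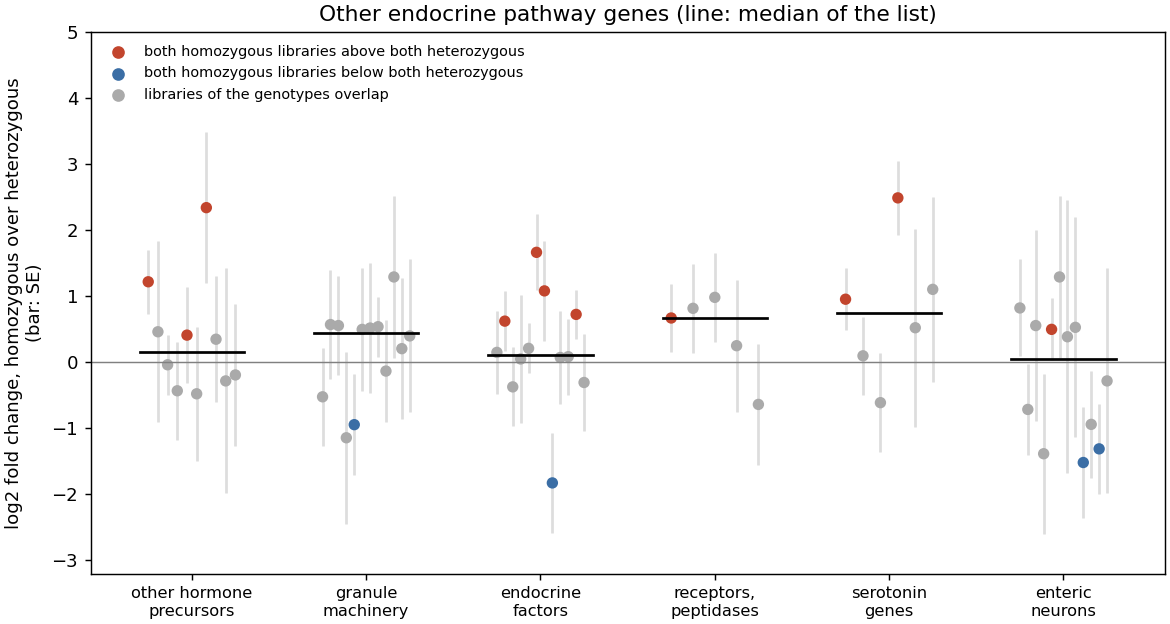
Log2 fold change, homozygous over heterozygous gut, of the tested genes of 6 endocrine and neuronal lists; each point is 1 gene with its standard error, its colour tells whether the libraries of the genotypes overlapped, and each line is the median of a list. The medians run from 0.05 (enteric neurons) to 0.74 (serotonin genes) with all 4 libraries, those of neurons, hormone precursors, granule genes and factors change sign with a library left out, and 0 genes were called by edgeR.

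penka is also a gene of enteric neurons, so their markers were set beside it. Of 30 neuron genes that the table holds, 12 were tested, with 6 higher and 6 lower, 0 called and 0 with an unadjusted p under 0.05, at a median log2 fold change of 0.05. That median was set by single libraries, at -2.09 without homozygous replicate 1 and 0.94 without heterozygous replicate 2. Their summed level was 62.6 and 46.9 CPM in homozygous gut, against 34.5 and 84.6 CPM in heterozygous gut, and so overlapped between genotypes. The part of neurons in the penka values was not tested. uchl1, a ubiquitin hydrolase gene of neurons, had 5.18 and 2.03 CPM, against 5.97 and 11.7 CPM. The tubulin genes tuba1c and tubb5 had 2.52 and 1.11 CPM, and 5.63 and 2.03 CPM, in homozygous gut, against 2.56 and 7.66 CPM, and 3.41 and 11.1 CPM, in heterozygous gut. hand2, a factor gene of enteric neurons and mesenchyme, had 1.63 and 0.646 CPM, against 0.512 and 5.25 CPM. These neuron genes were named for their small unadjusted p, and all were among the 6 lower. Among the 6 higher, ret and ache were named after their values were seen. ret had 10.37 and 7.105 CPM in homozygous gut, against 5.292 and 7.002 CPM. ache had 5.035 and 23.25 CPM, against 8.194 and 7.877 CPM.

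Markers of gut region and of other epithelial cells were set beside the members as well. Of 24 tested genes of anterior absorptive cells 8 had both homozygous libraries highest and 1 both lowest, while of 19 tested genes of posterior absorptive cells 4 had both highest and 9 both lowest. Over all tested genes the shares were 19.9% and 19.3%. The lists were chosen with earlier results of these data known. Nothing is therefore read from these numbers of genes, nor from those by fold change. By fold change 17 of the 24 anterior genes were higher and 7 lower, and 6 of the 19 posterior genes higher and 13 lower. All 25 anterior genes that the table holds summed to 115200 and 129800 CPM in homozygous gut, against 154100 and 45070 CPM, and so overlapped. The lowest of these sums was that of heterozygous replicate 2, where exocrine pancreas genes took 36.3% of the counts. The 22 posterior genes summed to 9311 and 18530 CPM, against 20480 and 28790 CPM. creb3l3l, a factor gene of lipid-absorbing cells, had 84.7 and 126.5 CPM in homozygous gut, against 45.1 and 41.7 CPM in heterozygous gut. slc15a1b, the peptide transporter gene, had 739.6 and 1249 CPM, against 275.5 and 196.2 CPM. fabp2, 1 of the 7 lower anterior genes and named after its values were seen, had 11280 and 8824 CPM, against 18450 and 3444 CPM. fabp6, the ileal bile acid binding protein gene, named after its values were seen, had 1506 and 2444 CPM, against 6443 and 11863 CPM. On the posterior list cdx1b, a caudal-type factor gene, had 35.5 and 94.2 CPM, against 22.2 and 10.8 CPM, and cftr, a chloride channel gene, 35.7 and 40.6 CPM, against 15.5 and 19.6 CPM. Of the 4 mucous cell genes, agr2 had 69.3 and 53.0 CPM, against 195.8 and 107.2 CPM, and b3gnt7 had 3.41 and 6.55 CPM, against 2.39 and 0.985 CPM. edgeR called 0 genes of the anterior, posterior and mucous lists, and 4, 5 and 1 of them in that order had an unadjusted p under 0.05. Their part in the hormone values was not tested.

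The members were also set beside other tested genes by the shape of their levels over the 4 libraries, as the root mean square difference of centred log2 CPM. sst1.1 and sst2 did not pass the count filter and so were not compared. Among the members gcga was nearest to ghrl, at 0.357, and to gcgb, at 0.426, while gip lay 0.557 from gcgb and 1.09 from ghrl. Among 7443 tested genes outside the members with a mean of at least 5 CPM, those nearest to gcga were aqp3a, an aquaglyceroporin gene (0.366), fam213ab (0.423) and scinla (0.441). For ghrl they were aqp3a (0.355), the tubulin gene tuba8l3 (0.372) and the uncoupling protein gene ucp3 (0.404). gcgb was nearest to fam213ab (0.580), ucp3 (0.698) and aqp3a (0.729), and gip to the keratin gene krt91 (0.554), the sodium pump gene atp1a1a.3 (0.592) and fam213ab (0.608). Within 0.5 lay 8 genes for gcga, 10 for ghrl and 0 for gcgb and for gip.

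penka had 200 genes within 0.5. The nearest were cited2, a transcriptional coregulator gene (0.0836), si:ch211-114l13.9 (0.131) and si:ch211-39i2.2 (0.132). cited2 had 36.7 and 34.7 CPM in homozygous gut, against 8.88 and 9.63 CPM in heterozygous gut. The genes of few counts, insm1b and scgn, had 4118 and 1946 genes within 0.5. The log2 CPM took a prior count of 2, which draws genes of few counts towards a flat shape. Fewer genes tend to lie within a fixed distance of a gene that varies more, so nothing is read from the numbers within 0.5. insm1b was nearest to ncor1 (0.0257), otud5a (0.0335) and tradd (0.0345), and scgn to sdccag3 (0.0356), hps3 (0.0621) and foxo3a (0.0711). With 4 libraries such likeness is a description of these fish only.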

How the data were processed

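Messenger RNA libraries of whole gut from 2 irf8 homozygous and 2 heterozygous zebrafish were analysed. The deposited counts are whole read pairs per gene, made by the authors with featureCounts 1.5.2 (paired, reverse-strand) on the UCSC danRer10 annotation, per the file headers; the aligner was not given in the sources used here. DESeq2 and R 3.3.1 are listed in the submitters' processing notes, with no file named. The authors' deposited table of 76 genes gives log2 fold changes, signed folds, p-values and, as a score with no unit in the header, the larger group mean; only its log2 values are used.

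Genes were filtered by edgeR's filterByExpr (minimum count 10, total 15), scaled by TMM and tested by quasi-likelihood for genotype alone (edgeR 4.0.16 under R 4.3.3), over all 9701 genes, with Benjamini-Hochberg adjustment at 0.05. Standard errors are those implied by the F statistic. The procedure was tested on simulated data. CPM are TMM-normalised. CPM per kb divides by counted exon length, which can differ from the length of the transcripts made. Intervals and floors (3 counts) cover counting error only, since PCR copies carry no molecular identifiers. That each library is a separate fish comes from the series' design text.

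The members, the 11 gene lists and the rules were chosen with earlier results of these data known. Of 319 list entries 215 matched by name, 14 by synonym (GRCz12tu table, names only), 3 repeated another and 87 were not used here. Named genes are the members, irf8, ins, from each list up to 4 genes (2 in exocrine, enterocyte and mucous lists) of smallest unadjusted p, and the 3 genes most like each member; others are marked as named after their values were seen. Alternatives were DESeq2's size factors, scaling without pancreas genes and members, no count filter beyond 1 count, a filter at 1 CPM on average, DESeq2 1.42.0 (Wald), a block for replicate number, leaving out each library, and an adjusted p of 0.1.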

Additional observations from a re-analysis of the deposited data

How the results depend on the processing

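Of 68 recomputed fold changes of the 7 genes, 62 moved by less than the spread between replicates, 5 moved by more and 1 changed sign. That spread takes in heterozygous replicate 2 and so was wide, at 1.43 for gcga, 1.87 for gcgb and 2.435 for gip (log2). A move below it is therefore a weak mark of stability. Those that moved by more were gcga, gcgb, ghrl and scgn without heterozygous replicate 2, and insm1b without homozygous replicate 1. The sign changed for scgn, at -0.10 (log2) without heterozygous replicate 1, against 1.14 without heterozygous replicate 2. Scaling the libraries without pancreas genes and members moved gcga to -3.59, ghrl to -3.35 and penka to 1.94. DESeq2's Wald test called 55 genes, among them 1 serotonin, 1 islet, 2 anterior and 1 posterior absorptive cell gene. With each library left out in turn, edgeR called 0 to 45 genes over the table, 0 to 2 hormone precursor, 0 to 3 islet and 0 to 1 exocrine genes. All of these calls came without heterozygous replicate 1, which leaves heterozygous replicate 2 alone in its group, assumed to vary like the homozygous libraries; the cause was not tested. The other settings, an adjusted p of 0.1 included, called 0 genes. With the replicate number as a block 0 genes were called, and the values were -3.02 for gcga, -3.87 for gcgb, -4.21 for gip and -3.14 for ghrl. Deviations of same-numbered libraries correlated at 0.0643 over genes, so the numbers are not taken as pairs. Of 110 list medians recomputed, 17 moved by more than that spread. gip without heterozygous replicate 2 and insm1b without homozygous replicate 2 did not pass the count filter. With 2 fish a genotype, edgeR called no difference of any size with all 4 libraries.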
